A study of Mus musculus with 6 samples.

Results

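The collagen chain genes described here are the 42 genes of the deposited expression table, out of 18169, whose symbol has the form Col, a type number, the letter a and a chain number. The rule reads symbols and no measured value, although it was written with earlier results of these data known, the wide spread of Col1a1 and Col3a1 among them. The libraries were made from Hepa 1-6 cells, a mouse hepatoma line that the labels list as hepatocytes, after treatment with Shh (Sonic hedgehog, a secreted ligand that acts through the Patched and Smoothened receptors) or with vehicle. There were 3 Shh libraries and 3 vehicle libraries, and both groups were the same line with no genetic change named. The labels give no dose or duration for these libraries and leave unsaid whether they are separate cultures. A p-value here is therefore set against library-to-library variation that may be technical. A line in culture has none of the stroma of a liver, where most interstitial collagen is made.

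Collagens are proteins of 3 chains wound into a triple helix, each kind of chain coming from its own gene. Fibrillar collagens (types I, II, III, V, XI, XXIV and XXVII) build the load-bearing fibrils of connective tissue, type IV forms the network of basement membranes, and other classes link, anchor or decorate these structures. In an injured liver, activated hepatic stellate cells and portal fibroblasts are the main source of types I and III, the scar collagens, while epithelial cells contribute to basement membranes.

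Each library held between 20253781 and 20335463 estimated counts, of which 0.0722% to 0.0764% fell on collagen chain genes. Alb (albumin) and Afp (alpha-fetoprotein) averaged 494 and 191 FPKM, while the hepatocyte genes Ttr and Serpina1a were at or near 0. Shh replicate 2 stood apart in its whole profile. The chi-square of counts per degree of freedom was between 6.40 and 12.3 for its pairs with the other 5 libraries and between 1.72 and 4.95 for all other pairs, more than sampling noise of a library deposited again would give. In several collagen genes, mainly of types I, III and V, it was Shh replicate 1 that stood apart, and values are therefore also given without it.

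Most of the collagen message in these cells was for basement membranes. Fragments per kilobase and depth (FPKM, the deposited unit that allows genes of different length to be compared) summed to between 117 and 125 over the 42 genes, and type IV made up 60.9% of this on average, between 58.0% and 62.6% in single libraries. Multiplexins (types XV and XVIII) followed with 15.3%, fibrillar chains with 8.21%, the FACIT class (chains that sit on the surface of fibrils) with 5.13%, beaded-filament type VI with 4.72%, the short chain types VIII and X with 4.12%, anchoring and other chains with 1.5% and transmembrane chains with 0.047%. Of the 42 genes, 12 averaged at least 1 FPKM, 11 lay between 0.1 and 1 FPKM and 19 lay under 0.1 FPKM.

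**Figure D1:**
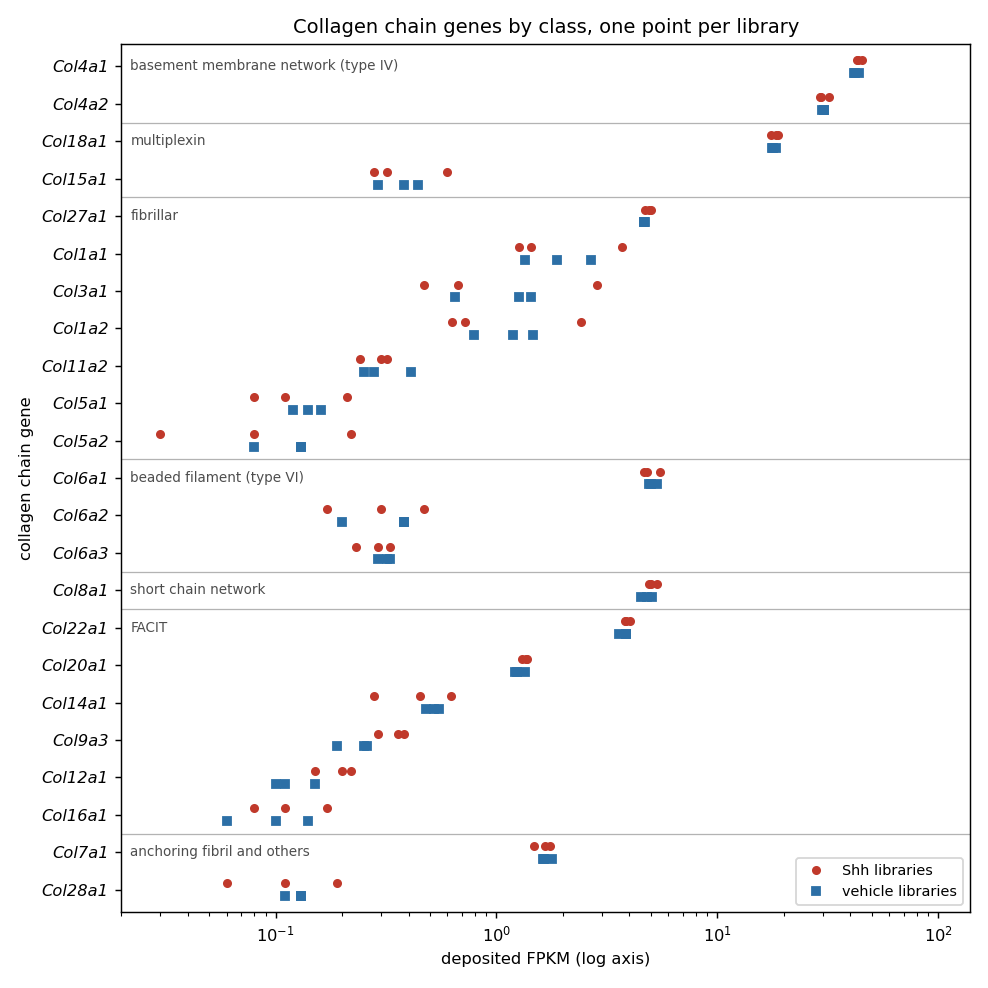
Deposited FPKM on a log axis for the 23 collagen chain genes that averaged at least 0.1 FPKM, ordered by class and level, with each Shh library as a circle and each vehicle library as a square below it. Col4a1 and Col4a2 lead at 43.1 and 30.3 FPKM with points that nearly coincide, while Col1a1, Col1a2 and Col3a1 are spread widely in both groups.

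Col4a1 and Col4a2 encode the chains of the most widespread form of type IV collagen. Col4a1 had 43.2, 45.1 and 42.9 FPKM in the Shh libraries, against 43.6, 41.9 and 41.7 FPKM in the vehicle libraries. Col4a2 had 29.3, 32.1 and 29.6 FPKM in the Shh libraries, against 29.8, 30.5 and 30.4 FPKM in the vehicle libraries. The groups overlapped for both genes, and the highest library was only 1.05 times the lowest for Col4a1 and 1.07 times for Col4a2 in normalized counts. The ratio of Col4a1 to Col4a2 FPKM was 1.40 to 1.48 in Shh libraries and 1.37 to 1.46 in vehicle libraries. The genes of the tissue-restricted type IV chains were nearly silent. Col4a3, Col4a4, Col4a5 and Col4a6 each averaged under 0.1 FPKM, with at most 8 counts in any library.

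Col4a1 and Col4a2 lie head to head and start within the same stretch of DNA. The RefSeq windows of 250 bases before to 50 bases after their annotated starts overlap by 78 bases. The Col4a1 window is shown because it holds the start region of the pair that carries most of the collagen signal (GRCm38.p6, chr8:11312777-11313076, minus strand, read 5′ to 3′ along Col4a1). Capitals mark matches on either strand to 3 motifs. The CCAAT box was searched as CCAAT. The GC box, a site of the Sp1 family, was searched as GGGCGG. The TATA box, which places the start of many regulated genes, was searched as TATAAA.
Col4a1: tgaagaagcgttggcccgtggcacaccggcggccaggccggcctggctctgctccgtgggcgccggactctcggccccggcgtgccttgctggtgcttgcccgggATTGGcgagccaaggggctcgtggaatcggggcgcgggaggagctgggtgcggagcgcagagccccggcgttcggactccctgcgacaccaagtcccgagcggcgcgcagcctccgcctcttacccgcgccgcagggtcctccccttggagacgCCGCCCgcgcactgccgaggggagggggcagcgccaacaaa
A CCAAT box on the opposite strand began at position -145 from the annotated start and a GC box on that strand at position 10, with no overlap between them and no TATA box. Of all 32851 windows of this length, 37.4% held the CCAAT box, 35.7% the GC box and 13.6% the TATA box. Such matches describe letters and are not evidence of binding.

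Col18a1, the precursor of the anti-angiogenic fragment endostatin and a basement membrane component, came next in level, with 17.5, 18.9 and 18.5 FPKM in Shh libraries and 17.8, 18.4 and 17.6 FPKM in vehicle libraries. Its relative Col15a1 averaged 0.385 FPKM. The chains Col27a1, Col8a1 and Col6a1 followed at 4.77, 4.93 and 5.02 FPKM, and their ranges over libraries overlapped, so that no order can be given among them. Col27a1 encodes a fibrillar chain best known from cartilage, Col8a1 a network-forming chain of vessel walls and Col6a1 a chain of the beaded filaments around cells. Col22a1, a FACIT chain of tissue junctions, averaged 3.83 FPKM, Col7a1, the chain of anchoring fibrils, 1.66 FPKM and Col20a1, a less studied FACIT chain, 1.31 FPKM.

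Genes of partner chains were not always at similar RNA levels. Type VI filaments are built from the products of Col6a1, Col6a2 and a longer chain such as that of Col6a3. Col6a1 averaged 5.02 FPKM, against 0.317 FPKM for its neighbour on the chromosome Col6a2 and 0.298 FPKM for Col6a3. The ratio of Col6a1 to Col6a2 FPKM was between 11.7 and 28.1 in Shh libraries and between 12.8 and 25.1 in vehicle libraries. Type I collagen holds more chains from Col1a1 than from Col1a2, and the corresponding FPKM ratio was 1.78 ± 0.27 (SD over 6 libraries).

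At the low end, 19 of the 42 genes did not pass the filter on low counts (about 10 counts in at least 3 libraries) and were not tested. Their highest count in any library was 18, for Col5a3, and 8 of them never exceeded 3 counts. Only 5 of the 19 had a count in every library, while Col9a2, Col19a1 and Col25a1 had counts in a single library. Each library listed between 2 and 8 collagen genes at 0, which at this depth allows up to 3 counts, or 0.148 CPM (counts scaled to the library total). All 3 transmembrane chains present, Col17a1, Col23a1 and Col25a1, were in this group, with Col23a1 the highest at 0.037 FPKM. Among these low genes, Col6a4 had 2, 2 and 1 counts in Shh libraries and 0 in every vehicle library, and Col4a4 had 1, 1.05 and 0 counts in Shh libraries against 3.02, 5.98 and 3 in vehicle libraries. Counts this close to 0 do not allow a comparison. These intervals and limits cover counting error only.

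Whether Shh changed collagen expression was asked with the quasi-likelihood test of edgeR, adjusted over the 12286 genes tested. No collagen chain gene passed an adjusted p of 0.05 (0 of 23, against 0% of all genes tested). DESeq2 gave an adjusted p to Col4a1 alone among them (DESeq2 adjusted p = 0.79), so it could call no other collagen and is no second test of them. At an unadjusted p under 0.05, 1 of the 23 was higher in Shh, against 4.83% of all genes tested, and 0 were lower, against 5.56%. The groups did not overlap with Shh higher for 2 of the 23 (6.77% of all genes tested) and with Shh lower for 0 (8.74%). The log2 fold changes of Shh over vehicle ran from -0.22 to 0.54, with 12 above 0, 11 below 0 and a median of 0.02, beside a median of 0.0028 over all genes tested.

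The 2 genes without overlap were both low FACIT chains. Col12a1, a fibril-associated chain of dense connective tissue, had 36, 37 and 32 counts in Shh libraries, against 26, 21 and 24 in vehicle libraries. The lowest Shh library exceeded the highest vehicle library by 6 counts. In deposited FPKM, given to few decimals, both of these were at 0.15. Its log2 fold change was 0.54 ± 0.23 (SE) with an edgeR adjusted p of 0.47, and it was the gene past the unadjusted threshold. It did not pass that threshold with DESeq2, with the replicate number as a block or with an offset for transcript length, nor without Shh replicate 1, Shh replicate 2, vehicle replicate 2 or vehicle replicate 3. Col9a3, a chain of type IX collagen of cartilage, had 19, 15 and 20 counts in Shh libraries, against 14, 10 and 13 in vehicle libraries. Here too the groups did not overlap, by a margin of 1 count, and the log2 fold change was 0.52 ± 0.31 (SE; edgeR adjusted p = 0.55). Its partner Col9a2 had no more than 2 counts in any library. Other log2 fold changes were 0.32 ± 0.42 for Col16a1, another FACIT chain, -0.22 ± 0.24 for Col14a1 and -0.12 ± 0.19 for Col6a3 (SE; edgeR adjusted p between 0.76 and 0.84).

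The abundant chains had small standard errors in the main fit, which cover scatter between libraries and not the length trend given below. For Col4a1 the log2 fold change was 0.02 ± 0.04 (SE), for Col4a2 -0.02 ± 0.04, for Col18a1 -0.00057 ± 0.04 and for Col27a1 0.03 ± 0.05. Col8a1 gave 0.06 ± 0.06, Col22a1 0.04 ± 0.06, Col20a1 0.07 ± 0.08, Col6a1 -0.05 ± 0.08 and Col7a1 -0.07 ± 0.08 (SE; edgeR adjusted p between 0.73 and 0.997 for these 9 genes). Each of these changes was smaller than its standard error in this fit. Some estimated counts were not whole, among tested members those of Col22a1, Col8a1, Col5a1, Col6a2, Col4a1 and Col4a2. How the counting gave them is not stated in the sources used here. Collagen genes are long, with a median of 89.6% of all tested genes shorter, and across all genes the log2 fold change rose with length (Spearman rho 0.50, across genes, which are not independent replicates). With an offset for length, the log2 fold change was -0.05 for Col4a1, -0.04 for Col27a1, -0.03 for Col22a1 and -0.0081 for Col20a1, so the direction of these small values depends on it. It was -0.09 ± 0.03 (SE) for Col4a2, past the unadjusted threshold of 0.05, and -0.16 ± 0.09 for Col7a1 (edgeR adjusted p = 0.84 for both).

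Types I, III and V, which copolymerize into the fibrils of scar tissue, behaved otherwise. Col1a1 had 440, 170 and 151 counts in the Shh libraries, against 160, 318 and 225 in the vehicle libraries. Col1a2, the partner chain, had 254, 66 and 76 counts in Shh libraries, against 83, 154 and 125 in vehicle libraries. Col3a1 had 320, 75 and 53 counts in Shh libraries, against 73, 161 and 141 in vehicle libraries. All 3 genes were highest in Shh replicate 1, next in vehicle replicates 2 and 3, and low in Shh replicates 2 and 3 and in vehicle replicate 1, so that the groups overlapped fully. The type V chains, which set the diameter of fibrils, followed at lower counts. Col5a1 had 36.3, 13.3 and 19.2 counts in Shh libraries, against 20.4, 24.3 and 26.7 in vehicle libraries. Col5a2 had 29, 10 and 4 counts, against 11, 17 and 18. Col5a3, which was not tested, had 14, 4 and 3 counts, against 3, 18 and 7, and was highest in vehicle replicate 2. Summed over the 6 genes of types I, III and V, counts were 1093, 338 and 306 in Shh libraries, against 350, 692 and 543 in vehicle libraries. The 9 abundant chains described above summed to 14010, 14683 and 14071 counts in the Shh libraries, against 14022, 13915 and 13988 in the vehicle libraries. The sum showed no such order, but Col4a1 and Col4a2 weigh most in it, at 5733 and 3932 counts on average. Of the 9, Col6a1 and Col27a1 were highest in Shh replicate 1 in normalized counts and the others elsewhere. Col6a1 had 437, 370 and 381 counts in Shh libraries, against 399, 389 and 426 in vehicle libraries.

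**Figure D2:**
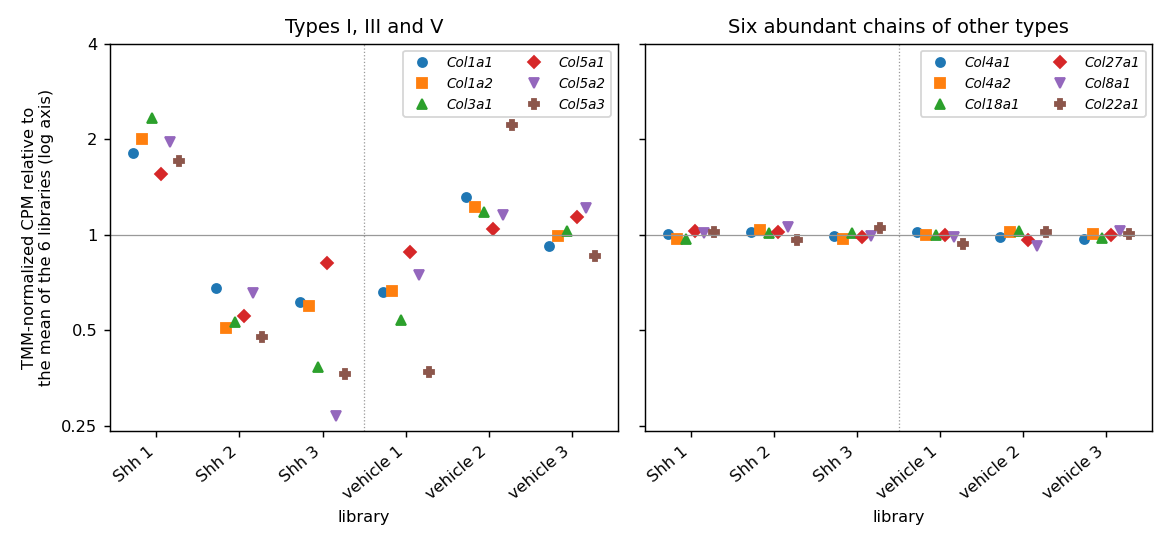
Normalized CPM of each gene relative to its mean over the 6 libraries, on a log axis, for the 6 genes of types I, III and V (left) and for 6 abundant chains of other types (right), with the 3 Shh libraries left of the dotted line and the 3 vehicle libraries right of it. All 6 genes on the left lie above 1 in Shh replicate 1 and below 1 in Shh replicates 2 and 3 and vehicle replicate 1, while the genes on the right stay close to 1 in every library.

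Col3a1 and Col5a2 are neighbours on the chromosome, whereas Col1a2 lies elsewhere. The start windows of Col1a2 (GRCm38.p6, chr6:4505368-4505667, plus strand) and Col3a1 (chr1:45311288-45311587, plus strand) are shown because these genes varied together over the libraries, with capitals for the same 3 motifs. RefSeq windows were found for 33 of the 42 members.
Col1a2: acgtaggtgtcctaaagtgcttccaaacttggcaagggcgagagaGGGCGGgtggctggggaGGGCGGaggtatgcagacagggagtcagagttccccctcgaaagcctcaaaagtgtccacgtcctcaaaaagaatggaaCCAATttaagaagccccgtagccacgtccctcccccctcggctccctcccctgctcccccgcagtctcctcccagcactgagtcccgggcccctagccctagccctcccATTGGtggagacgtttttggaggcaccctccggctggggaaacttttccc
Col3a1: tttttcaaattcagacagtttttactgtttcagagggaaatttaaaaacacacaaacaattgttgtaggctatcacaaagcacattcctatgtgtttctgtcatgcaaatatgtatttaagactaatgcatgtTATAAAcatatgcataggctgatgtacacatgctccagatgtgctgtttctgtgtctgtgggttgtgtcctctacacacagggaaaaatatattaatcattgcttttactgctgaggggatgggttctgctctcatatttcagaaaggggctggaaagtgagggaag
The Col1a2 window held the GC box at positions -205 and -188 and the CCAAT box at position -109 and, on the other strand, at position 1. The Col3a1 window held the letters TATAAA at position -117 and neither of the other motifs, so the searched letters were not shared between the windows. Where the windows lie depends on the annotated starts, and a match of letters is not evidence of a working element.

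The spread between libraries of a group was expressed as the SD of log2 CPM, pooled over both groups, beside the SD that counting error alone would give. For Col3a1 the SD was 1.37 in Shh and 0.60 in vehicle libraries, and 1.05 pooled, which is 7.26 times the counting error of 0.15. For Col1a1 it was 0.85 in Shh and 0.49 in vehicle libraries, 0.70 pooled and 7.02 times counting error, and for Col1a2 1.07 in Shh and 0.44 in vehicle libraries, 0.82 pooled and 5.79 times. These 3 genes were the only tested collagens above 5 times, and the ratio was larger than that of 98.9% of all tested genes for Col1a1, 99.0% for Col3a1 and 98.4% for Col1a2. The vehicle group alone therefore also varied more than counting allows. The highest library exceeded the lowest 2.94-fold for Col1a1, 3.95-fold for Col1a2 and 6.09-fold for Col3a1.

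The type V chains also varied, with a pooled SD of 0.88 for Col5a2 and 0.51 for Col5a1, but at their low counts this was 2.19 and 1.70 times counting error. Col27a1 and Col11a2, also fibrillar, differed from these. Col27a1, the most abundant fibrillar chain, had 737, 749 and 711 counts in Shh libraries and 711, 686 and 713 in vehicle libraries, with a pooled SD of 0.03, or 0.58 times counting error. Col11a2 had 28, 40 and 38 counts in Shh libraries and 35, 48 and 28 in vehicle libraries, which puts Shh replicate 1 among its lowest. Outside the fibrillar class, the largest spread among genes with at least 50 counts on average was that of Col14a1, a FACIT chain of collagen fibrils, at 0.40 (80, 57 and 36 counts in Shh, against 61, 67 and 70 in vehicle), followed by Col6a3 at 0.23 (66, 56 and 43 counts in Shh, against 54, 58 and 64 in vehicle). Both genes were low in Shh replicate 3, and without it the SD was 0.22 for Col14a1 and 0.14 for Col6a3. Over the 23 tested genes the median ratio to counting error was 1.37, beside 1.31 over all genes tested, and it was under 1 for 4 of them.

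**Figure D3:**
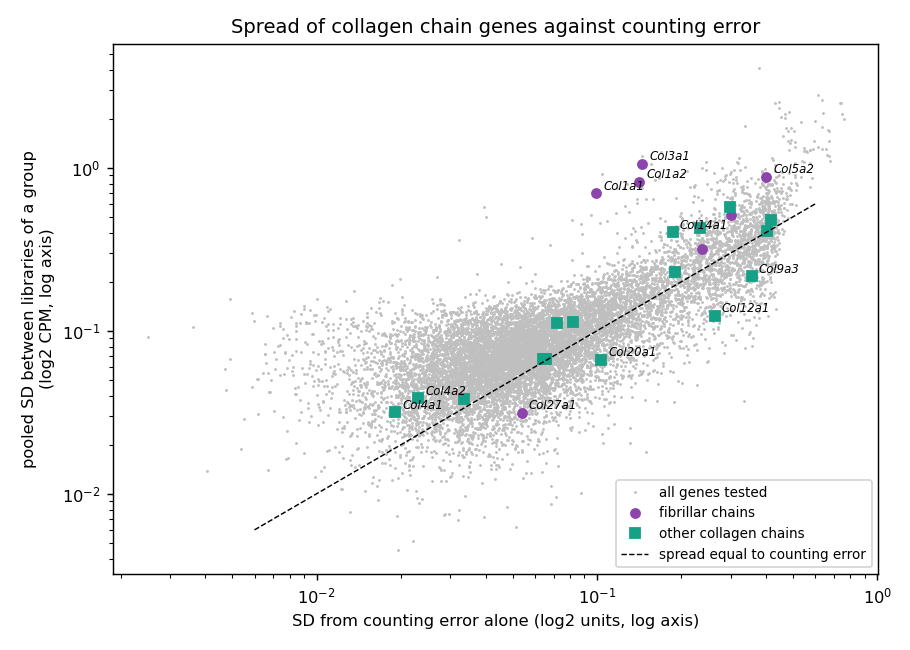
Pooled SD of log2 CPM between libraries of a group (vertical) against the SD from counting error alone (horizontal), both on log axes, for all genes tested (grey), the fibrillar chains (circles) and the other collagen chains (squares), with a dashed line where both are equal. Col1a1, Col1a2 and Col3a1 lie at 5.79 to 7.26 times the counting error, and Col4a1, Col4a2 and Col27a1 at the low end of the vertical axis.

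Shh replicate 1 was the library with the highest normalized level for 12 of the 23 tested collagens, beside 15.0% of all genes tested. These were 6 of the 7 tested fibrillar chains, all 3 of type VI, Col14a1, Col16a1 and Col15a1. The 6 include Col27a1, at 36.5 normalized CPM in Shh replicate 1 and 36.1 in Shh replicate 2. In counts as deposited Col27a1 was higher in Shh replicate 2 (749 against 737). Because 1 library weighs so much, the fit was repeated without it. With all libraries the log2 fold change was 0.24 ± 0.51 (SE) for Col3a1, 0.11 ± 0.41 for Col1a2 and 0.09 ± 0.34 for Col1a1 (edgeR adjusted p between 0.89 and 0.94). Without Shh replicate 1 it was -0.997 ± 0.27 for Col3a1, -0.80 ± 0.22 for Col1a2 and -0.58 ± 0.21 for Col1a1 (edgeR adjusted p = 0.066, 0.066 and 0.13). Leaving out vehicle replicate 1 instead also put all 3 below 0, at -0.03 for Col3a1, -0.10 for Col1a2 and -0.12 for Col1a1. No collagen gene passed the adjusted threshold without Shh replicate 1 (0 of 23, against 1.57% of all genes).

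Without Shh replicate 1, 5 of the 23 were lower in Shh at an unadjusted p under 0.05 (10.4% of all genes) and 0 were higher (10.7% of all genes). The 5 were Col3a1, Col1a2, Col1a1, Col5a2 and Col14a1, all of them highest in Shh replicate 1. This library was singled out after its high values had been seen. The lower fold changes of these genes without it follow from that choice and test no effect of Shh. The remaining Shh libraries, with 66 and 76 counts of Col1a2, were below all 3 vehicle libraries, while for Col1a1 they overlapped with vehicle replicate 1, as they did for Col3a1 in counts as deposited (75 against 73). With an offset for length as well, an alternative chosen after the data had been seen, 9 of the 23 were lower at this threshold (5.08% of all genes). These were the 5 above with Col6a1, Col4a1, Col4a2 and Col7a1. Col4a1, Col4a2 and Col7a1 were not highest in Shh replicate 1, and the cause of their lower values was not tested. The smallest edgeR adjusted p of a collagen gene in that fit was 0.14. The sign changed for 8 of the 23 genes when the library was left out, and the pooled SD was then 0.52 for Col3a1 and 0.40 for Col1a1, larger than that of 98.0% and 95.8% of all tested genes.

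**Figure D4:**
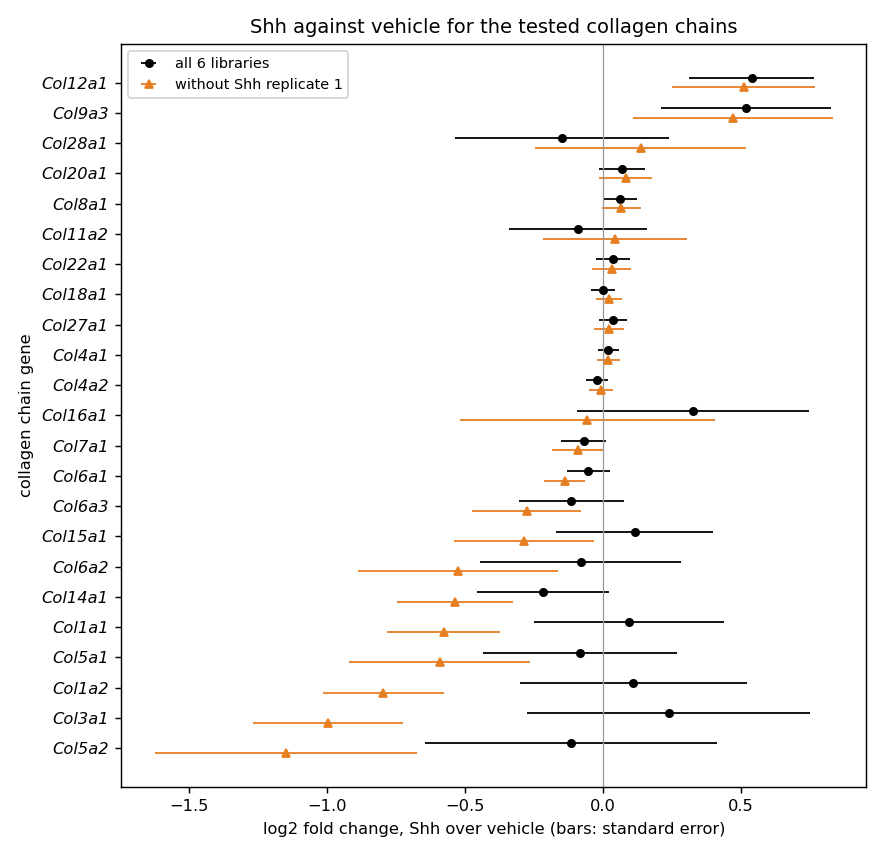
Log2 fold change of Shh over vehicle with its standard error for the 23 tested collagen chain genes, from all 6 libraries (circles) and without Shh replicate 1 (triangles), ordered by the value without it. Col12a1 and Col9a3 stand highest in both fits, at 0.54 and 0.52 with all libraries, and Col1a1, Col1a2 and Col3a1 are slightly above 0 with all libraries and between -0.58 and -0.997 without Shh replicate 1.

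Markers of stellate cells and fibroblasts followed the same libraries. Of 12 such genes, 9 were highest in Shh replicate 1, and of the 9 that passed the filter on low counts 7 were. Dcn (decorin, a proteoglycan that binds collagen fibrils) was the exception in level, with 18222, 20313 and 19329 counts in Shh libraries, against 18700, 18219 and 19301 in vehicle libraries, and is thus a major transcript of every library. Without Dcn the other 11 genes summed to 11.5, 4.52 and 4.94 FPKM in Shh libraries, against 6.91, 8.51 and 8.37 FPKM in vehicle libraries. This is the order seen for types I, III and V, apart from vehicle replicate 1, which lay nearer to the other vehicle libraries. Tagln (transgelin, an actin-binding protein of contractile cells) had 72.9, 21.5 and 28.1 counts in Shh libraries, against 46.2, 59.3 and 66.1 in vehicle libraries, and Acta2 (smooth muscle actin), named after its values were seen, had 189, 75.5 and 69.0 counts, against 99.4, 148 and 136. With all libraries the log2 fold change was -0.51 ± 0.36 for Tagln and -0.22 ± 0.31 for Acta2 (SE; edgeR adjusted p = 0.62 and 0.82). Without Shh replicate 1 it was -1.25 ± 0.25 and -0.85 ± 0.17 (SE; edgeR adjusted p = 0.046 for each), where 1.57% of all genes passed 0.05. Both genes were highest in the omitted library, so the lower values follow from leaving it out and test no effect of Shh. Neither call held with the length offset as well, where edgeR gave -1.18 ± 0.25 for Tagln and -0.84 ± 0.17 for Acta2 (SE; adjusted p = 0.096 and 0.074). Thy1, a fibroblast surface protein, had 33, 7 and 8 counts in Shh libraries and 9, 11 and 12 in vehicle libraries. Pdgfra, the growth factor receptor of mesenchymal cells, did not follow, with 78, 90 and 89.0 counts in Shh libraries and 102, 81.1 and 97 in vehicle libraries. Lrat, which defines quiescent stellate cells, never exceeded 1.06 counts.

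Markers of other cell types were read in the same way. The 7 endothelial genes summed to 1.07, 0.63 and 0.48 FPKM in Shh libraries, against 0.55, 0.86 and 0.55 FPKM in vehicle libraries. Of these, 5 of 7 were highest in Shh replicate 1, but most were below the filter on low counts, and 2 of the 3 tested were. Of the 6 macrophage and leukocyte genes analysed, 4 were highest there, and 2 of the 4 tested. Cd14 and Cd68 made up most of their sum, at 20.1 and 11.4 FPKM, and the list summed to 33.0, 29.9 and 31.1 FPKM in Shh libraries, against 33.9, 33.1 and 33.2 FPKM in vehicle libraries. The 6 cholangiocyte genes summed to between 471 and 504 FPKM in Shh libraries and between 476 and 497 FPKM in vehicle libraries, and none was highest in Shh replicate 1. The 9 hepatocyte and fetal liver genes summed to between 861 and 899 FPKM in Shh libraries and between 873 and 893 FPKM in vehicle libraries. Of these, 4 were highest in Shh replicate 1, and 3 of the 7 tested. In bulk RNA, fewer cells of a type and less RNA per cell cannot be told apart, and the part of other cells in the spread of types I and III was not tested.

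**Figure D5:**
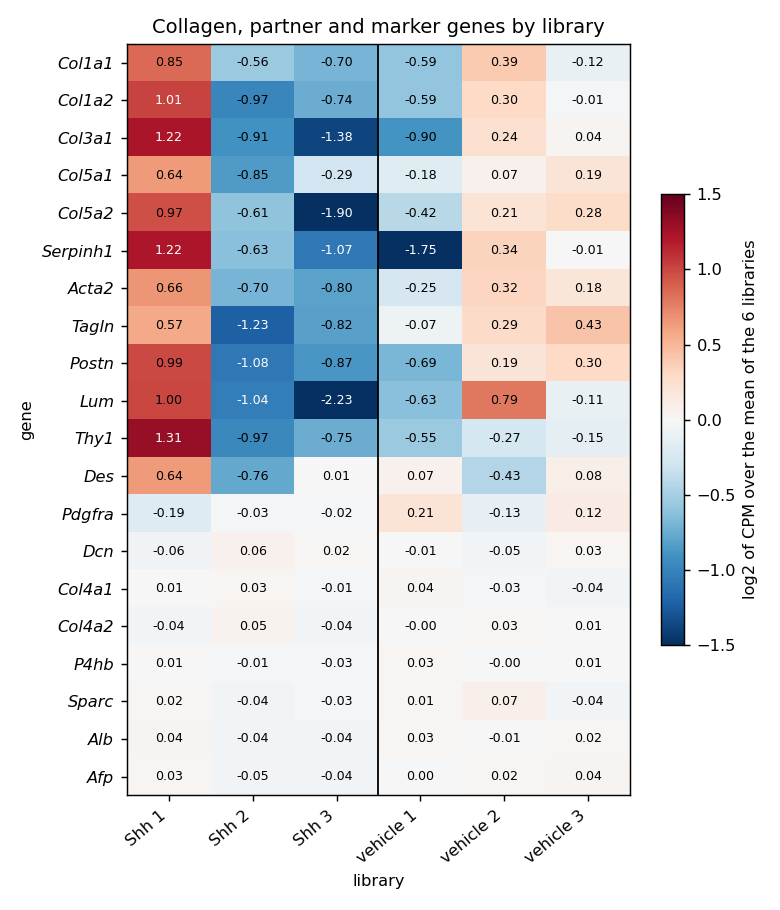
Log2 of normalized CPM over the mean of the 6 libraries for collagen chains, the collagen chaperone Serpinh1, mesenchymal markers and abundant genes of the line, with the 3 Shh libraries left of the line and the 3 vehicle libraries right of it and each value printed in its cell (colours saturate at 1.5 in either direction). The rows from Col1a1 to Thy1 are high in Shh replicate 1 and low in Shh replicates 2 and 3, while Dcn, Col4a1, Col4a2, P4hb, Sparc, Alb and Afp stay near 0 throughout.

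Of 42 genes for the production of collagen, 31 were tested and 0 were called. At an unadjusted p under 0.05, 1 was higher (4.83% of all genes tested) and 0 were lower (5.56%). The other 11 did not pass the filter, among them Lox, Plod2 and P4ha3. For 2 of the 31 tested, Plod3 and Pcolce, the groups did not overlap with Shh lower (8.74% of all genes tested). With Shh higher this held for 0 (6.77%). Among the modifying enzymes, P4hb, a subunit of prolyl hydroxylase, averaged 452 FPKM and Ppib, a prolyl isomerase, 206 FPKM, and Plod3, a lysyl hydroxylase, was lower in every Shh library than in every vehicle library in normalized counts, with a log2 fold change of -0.08 ± 0.04 (SE; edgeR adjusted p = 0.49). For export, Mia2, which helps load large cargo at the endoplasmic reticulum, was the gene at an unadjusted p under 0.05, with 1342, 1517 and 1439 counts in Shh libraries, against 1343, 1258 and 1309 in vehicle libraries. Its groups overlapped by 1 count as deposited, and its log2 fold change was 0.11 ± 0.05 (SE; edgeR adjusted p = 0.48). Pcolce, an enhancer of propeptide removal, averaged 366 FPKM and Loxl4, a crosslinking enzyme, 31.3 FPKM.

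Some production genes went with types I and III instead. Serpinh1, the collagen-specific chaperone HSP47, named after its values were seen, averaged 0.612 FPKM and had 63, 18 and 13 counts in Shh libraries, against 8, 34 and 27 in vehicle libraries. It was highest in Shh replicate 1 and lowest in vehicle replicate 1, and its log2 fold change was 0.42 ± 0.56 with all libraries and -0.60 ± 0.47 without Shh replicate 1 (SE; edgeR adjusted p = 0.80 and 0.51). Loxl1, a crosslinking enzyme, had 33, 17 and 10 counts in Shh libraries, against 16, 36 and 30 in vehicle libraries, so vehicle replicates 2 and 3 and Shh replicate 1 were again the high ones.

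Of 38 breakdown, receptor and basement membrane genes analysed, 25 were tested and 0 were called. For 2 of the 25, Nid2 and Ddr2 described below, the groups did not overlap with Shh higher (6.77% of all genes tested). With Shh lower this held for 0 (8.74%). At an unadjusted p under 0.05, 1 was higher (4.83% of all genes tested) and 0 were lower (5.56%). The gene was Nid2, a nidogen that ties laminin to type IV collagen, with 45.0, 38.0 and 48 counts in Shh libraries, against 20, 25.0 and 31 in vehicle libraries. The groups did not overlap, and the log2 fold change was 0.76 ± 0.23 (SE; edgeR adjusted p = 0.47). Its abundant relative Nid1 averaged 29.5 FPKM and Sparc, a collagen-binding matrix protein, 150 FPKM. Among the receptors, Ddr2, a kinase that is activated by fibrillar collagen, was higher in every Shh library than in the vehicle libraries. It had 2264, 2583 and 2384 counts in Shh libraries, against 2242, 2108 and 2263 in vehicle libraries. The margin was small, with Shh replicate 1 at 111.97 and vehicle replicate 3 at 111.84 normalized CPM. The log2 fold change of Ddr2 was 0.10 ± 0.05 (SE; edgeR adjusted p = 0.48) with all libraries and 0.02 ± 0.04 with the length offset (adjusted p = 0.95). Itgb1, the shared subunit of collagen-binding integrins, averaged 119 FPKM. Of the breakdown genes, the inhibitor Timp2 led at 130 FPKM, and the collagenase Mmp13 had 26.1 FPKM.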

How the data were processed

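Poly(A) RNA of Shh-treated and vehicle-treated Hepa 1-6 cells was sequenced on a BGISEQ-500, with 3 libraries in each group. Gene-level estimated counts were deposited by the authors and include fractions (36.4% of nonzero entries). The deposited FPKM had been scaled by the authors for transcript length and sequencing depth. The submitters' processing notes name Bowtie2. Which counting tool, build and annotation were used is not given in the sources used here. A further 6 per-sample columns in another unit were not used. The sample labels, which name the cell line, were followed over the design text, which mentions exosomes of livers. The members and gene lists were chosen with earlier results of these data known.

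Estimated counts were rounded and tested in R 4.3.3 with edgeR 4.0.16 (TMM factors, filterByExpr at a minimum count of 10 and total of 15, quasi-likelihood F test on a design holding group alone) with Benjamini-Hochberg adjustment over all 12286 genes tested and a threshold of 0.05. Standard errors were taken from the fold change and its F statistic. Spread was computed from log2 CPM (prior count 2), and counting error from the counts. Levels between genes were compared on FPKM only. Length was recovered from counts and FPKM, where FPKM was at least 0.1. The edgeR test and the length offset were tested on simulated data.

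Named genes were Col1a1 and Col3a1, the highest chain of each class, the 5 smallest p in each direction, the 5 largest spreads among genes with at least 50 counts on average, and in other lists genes among the 3 with the smallest p or with the highest FPKM. Other chains are named to complete a class, and genes outside the rule are marked as such or belong to the library pattern described. The list genes Col9a1, Col13a1, Col21a1, Mmp8 and Clec4f were not analysed here. Each choice was varied in turn, with DESeq2 1.42.0, with factors from the upper quartile, unfiltered, with a filter of 5 CPM in 3 libraries, with a replicate block, with a length offset (a trend of 5 degrees of freedom in each library), with block and offset combined and by omitting every library once. The length offset without Shh replicate 1 was chosen after seeing the data, as was the weight given to omitting that library. Promoter windows came from RefSeq on GRCm38.p6 and were matched by gene identifier.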

Additional observations from a re-analysis of the deposited data

How the results depend on the processing

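No collagen, production, breakdown, receptor or basement membrane gene was called under any setting. Among the collagens DESeq2 gave an adjusted p to Col4a1 alone, so it could call no other. Without a filter 42 collagens were tested. The length offset turned the log2 fold change of Col4a1 to -0.051, Col22a1 to -0.031, Col27a1 to -0.042 and Col20a1 to -0.0081. It also gave -0.091 for Col4a2 and -0.16 for Col7a1, which kept their sign. Col12a1 passed an unadjusted p of 0.05 in the main test, but not with DESeq2, the replicate block or the length offset. The filter at 5 CPM gave 0.0037 for Col18a1. Omitting Shh replicate 1 under the length offset gave -0.67 for Col1a1, -1.08 for Col3a1, -0.87 for Col1a2, -0.078 for Col4a1, -0.061 for Col22a1, -0.084 for Col27a1, -0.0086 for Col8a1, -0.022 for Col20a1, -0.13 for Col16a1 and -0.57 for Serpinh1. The cause was not tested.

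Deviations of same-numbered libraries correlated at -0.040, -0.054 and 0.098, and only replicate 3 matched best within its own number. With 3 libraries in each group, such values cannot settle whether same-numbered libraries were prepared together, which the labels leave unsaid. With the replicate block 0 collagen genes were called, and Col1a2 gave -0.028. The block with the length offset gave -0.030 for Col1a1, -0.029 for Col3a1, -0.075 for Col1a2, -0.051 for Col4a1, -0.031 for Col22a1, -0.042 for Col27a1 and -0.0066 for Col20a1.

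Leaving out each library gave ranges that crossed 0 for several genes, among them -0.58 to 0.38 for Col1a1, -0.997 to 0.64 for Col3a1, -0.80 to 0.44 for Col1a2, -0.59 to 0.20 for Col5a1, -1.15 to 0.32 for Col5a2, -0.54 to 0.028 for Col14a1, -0.057 to 0.55 for Col16a1, -0.28 to 0.030 for Col6a3, -0.14 to 0.0023 for Col6a1, -0.13 to 0.0057 for Col7a1, -0.0022 to 0.071 for Col22a1, -0.016 to 0.022 for Col18a1, -0.60 to 0.82 for Serpinh1 and -0.85 to 0.031 for Acta2. The lowest values of the first 8, of Col6a1, Serpinh1 and Acta2 came without Shh replicate 1. The pooled SD ran from 0.40 to 0.80 for Col1a1 and 0.52 to 1.2 for Col3a1, with the lowest value in each case without Shh replicate 1, while other scalings left it within 0.69 to 0.72 and 1.05 to 1.08. On CPM, which does not correct for length, type IV made up 64.6% of the collagen signal, multiplexins 12.5%, FACIT chains 5.31%, type VI 3.27%, types VIII and X 3.40% and anchoring and other chains 2.15%. Low counts limit what can be said of Col12a1, Col9a3 and the type V chains, since a few reads decide their group order.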
